A study of Mus musculus with 10 samples.

Results

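Transcripts of 10 regulators of blood stem and progenitor cells (Kit, Flt3, Cd34, Slamf1, Tal1, Gata2, Meis1, Hoxa5, Hoxa9 and Mecom) were followed in B cells of the mouse spleen. The genes were chosen by symbol, and all 10 were measured, by 11 of the 34760 probe sets and as 10 of the 19937 genes with a probe set of a single symbol. The cells were sorted by FACS as B220+CD22+ B-cells from spleens of CBAxC57BL/6J mice and hybridised to 10 Affymetrix Mouse Gene 1.0 ST arrays. Floxed arrays (n = 3) came from Sca1-Bcl6(floxed) mice, which carry a loxP-flanked cassette of mouse Bcl6, an IRES and eGFP in the pLy6 vector of the Sca1 gene (Ly6a). Delta arrays (n = 4) came from Sca1-Bcl6(delta) mice, in which that transgene was combined with mb1-Cre, a recombinase expressed from the Cd79a locus of B-lineage cells. Wild-type arrays (n = 3) came from mice of the same labelled strain without the transgene. The Sca1 vector is meant to act in stem and progenitor cells, which raised the question whether genes of those cells persist in the splenic B cells that descend from them. A pair of independent transgenic lines was made, and the labels do not say which line an array came from or whether each array is a separate animal, so p-values measure the spread between these samples.

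Blood stem cells respond to Kit ligand and Flt3 ligand through the receptor tyrosine kinases Kit and Flt3, and they are sorted by surface proteins such as Cd34 and the SLAM receptor Slamf1 (CD150). A core of transcription factors keeps the state: Tal1 and Gata2 act together in one complex, Hoxa9 and Hoxa5 bind DNA with Meis and Pbx partners, and Mecom (Evi1) is needed for long-term self-renewal. Most of these genes are shut down as progenitors commit to the B lineage, where Pax5 is known to silence Flt3, while Slamf1 is also known on lymphocytes and dendritic cells.

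The values are RMA intensities per probe set, and levels and differences are given on the log2 scale. Array medians of intensity ranged over 139.3 to 145.4, and the sorted cells had the B cell identity genes at array means of 12.80 to 12.93 in floxed, 12.76 to 12.85 in delta and 12.88 to 12.95 in wild-type arrays (11 of 12 listed genes measured). In that list Cd79a fell in delta against wild-type arrays (-0.48, SE 0.06, limma adjusted p = 0.0427), and the other 10 genes did not pass in any comparison. Against floxed arrays the delta arrays differed by -0.40 in Cd79a (SE 0.06, limma adjusted p = 0.123). All delta arrays lay below all floxed and all wild-type arrays for this gene. The delta mice also carry mb1-Cre, which is expressed from the Cd79a locus, and its part in these values was not tested. The call of Cd79a ended, at changes of -0.49 to -0.46, on leaving out floxed 1, floxed 3, delta 1, delta 3, wild-type 1 or wild-type 2 (limma adjusted p = 0.0659, 0.0519, 0.0677, 0.0688, 0.129 and 0.211). It also ended with every probe set with a symbol, with only the 2 groups compared, with the replicate block and with the sex pattern as a covariate (limma adjusted p = 0.0652, 0.0784, 0.116 and 0.0677, at changes of -0.49 to -0.47). Bcl6 itself lay at 9.80 to 9.96 in floxed, 9.56 to 9.83 in delta and 9.80 to 10.48 in wild-type arrays. By Xist and the Y-linked genes, 3 of 3 floxed, 1 of 4 delta (delta 1) and 0 of 3 wild-type arrays had a male pattern, so sex and genotype cannot be told apart in floxed against wild-type arrays. Wherever the sex pattern is used as a covariate, its term is estimated from delta 1 against the other delta arrays alone.

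Of the 10 regulators, 0 passed an adjusted p of 0.05 (limma, Benjamini-Hochberg over 19937 genes) in any of the 3 comparisons, where 0.552% of all genes passed between floxed and wild-type arrays, 0.0752% between delta and wild-type arrays and 0.00502% between delta and floxed arrays. Flt3 came nearest, with a log2 difference of 1.02 between floxed and wild-type arrays, followed by Hoxa5 with 0.47, and delta arrays averaged between floxed and wild-type arrays for both. Slamf1 had linear mean intensities of 1023 in floxed, 941 in delta and 1156 in wild-type arrays, and its groups overlapped. The remaining 7 members had levels between 5.63 and 7.19 on all 10 arrays. The SD over the 10 arrays was 0.25 for Hoxa5, 0.24 for Slamf1 and 0.17 for Meis1, and it lay between 0.057 (Kit) and 0.087 (Cd34) for the 6 members beside these and Flt3.

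**Figure D1:**
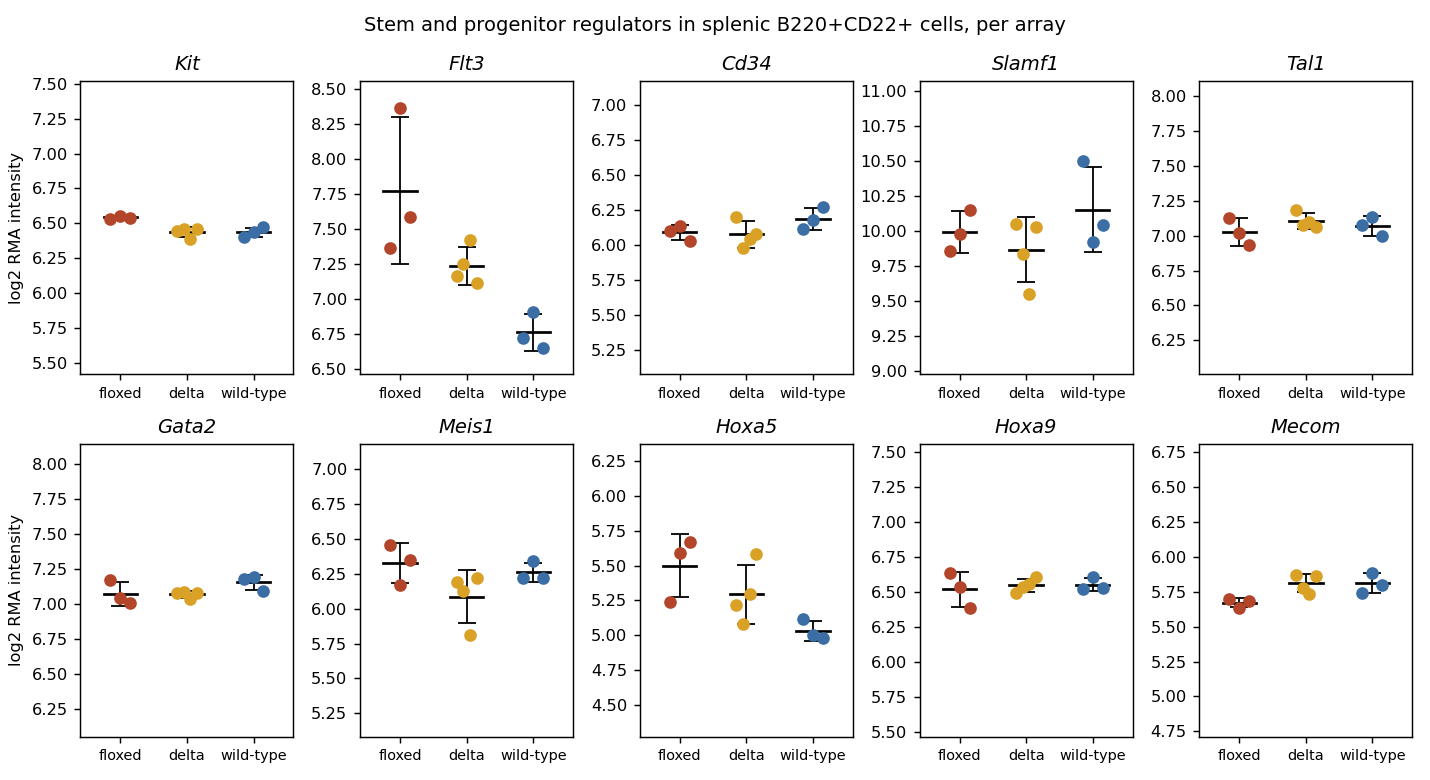
Level of each regulator (log2 RMA intensity) on each array, with floxed, delta and wild-type arrays from left to right; points are arrays, horizontal bars are group means and error bars are the SD between arrays (n = 3, 4 and 3). All panels span the same height on the log2 axis. Flt3 and Hoxa5 have their highest mean in floxed arrays (7.77 and 5.50) and their lowest in wild-type arrays (6.76 and 5.03), while the group means of the other members lie closer together.

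The promoters of the 3 members whose levels varied or stood out, Flt3, Hoxa5 and Slamf1, are shown because the comparisons below turn on these genes. Each runs from 250 bases before to 50 bases after the transcription start (RefSeq, GRCm38.p6), and capitals mark E-boxes (CANNTG), the class of site that Tal1 binds together with E proteins. Flt3 lies on the minus strand at chr5:147400440-147400739, Hoxa5 on the minus strand at chr6:52204538-52204837 and Slamf1 on the plus strand at chr1:171766882-171767181.
Flt3: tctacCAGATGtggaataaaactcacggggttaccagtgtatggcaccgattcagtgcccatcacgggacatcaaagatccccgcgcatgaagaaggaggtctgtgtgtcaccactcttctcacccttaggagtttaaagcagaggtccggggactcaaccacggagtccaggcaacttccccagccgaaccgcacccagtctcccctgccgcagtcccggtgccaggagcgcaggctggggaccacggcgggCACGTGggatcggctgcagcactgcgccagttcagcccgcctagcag
Hoxa5: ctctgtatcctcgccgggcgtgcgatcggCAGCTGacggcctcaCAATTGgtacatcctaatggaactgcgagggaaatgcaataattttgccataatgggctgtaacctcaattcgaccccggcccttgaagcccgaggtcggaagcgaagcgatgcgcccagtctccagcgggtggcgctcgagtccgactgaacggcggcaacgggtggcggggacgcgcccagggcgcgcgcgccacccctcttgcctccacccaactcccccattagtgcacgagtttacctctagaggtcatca
Slamf1: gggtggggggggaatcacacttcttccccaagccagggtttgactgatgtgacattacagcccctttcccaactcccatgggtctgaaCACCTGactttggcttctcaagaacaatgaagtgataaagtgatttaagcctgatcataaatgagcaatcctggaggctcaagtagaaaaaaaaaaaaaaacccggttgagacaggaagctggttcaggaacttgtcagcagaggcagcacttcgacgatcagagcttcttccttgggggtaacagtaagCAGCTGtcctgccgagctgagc
All 10 members matched an entry, with 14 promoters in all. An E-box stood in 10 of these 14, against 72.3% of all 32851 promoters of this length. The shorter GATA motif (GATAA, either strand) stood in 6 of the 14, among them that of Slamf1 and neither of the Flt3 and Hoxa5 promoters, against 25.4% of all promoters. The letters TTCNNNGAA, which read alike on both strands and are shared by STAT and BCL6 type sites, stood in 0 of the 14 and in 8.3% of all promoters. The Flt3 and Hoxa5 promoters had a GC content of 61.0% and 61.7% with 18 and 29 CpG dinucleotides, and that of Slamf1 had 49.0% with 4, against medians of 52.7% and 7 over all promoters.

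Among the receptors, Flt3, which transmits the Flt3 ligand signal to early lymphoid progenitors and dendritic cells, was the most variable member, with an SD of 0.49 over the 10 arrays that exceeded the SD of 99.0% of all genes. Its levels (probe set 10535780) were 7.37, 8.37 and 7.59 in floxed arrays, 7.16, 7.25, 7.42 and 7.11 in delta arrays, and 6.72, 6.91 and 6.65 in wild-type arrays. All floxed and all delta arrays lay above all wild-type arrays, and the highest delta array, delta 3, lay above the lowest floxed array, floxed 1. On the linear scale the mean intensity of Flt3 was 229 ± 89 (SD, n = 3) in floxed, 151 ± 15 (SD, n = 4) in delta and 109 ± 10 (SD, n = 3) in wild-type arrays. Much of the spread in floxed arrays came from floxed 2, at 8.37.

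The log2 difference of Flt3 in floxed against wild-type arrays was 1.02 (SE 0.20, 95% CI 0.57 to 1.46), a 2.02-fold difference, with a limma adjusted p of 0.0558. Over the 19 alternatives the adjusted p lay between 0.0261 and 0.575, and Flt3 passed in 7 of them. It passed without floxed replicate 2 (0.72, SE 0.11, adjusted p = 0.0442), without floxed replicate 1 (1.22, adjusted p = 0.0432) and without delta replicate 4 (1.02, adjusted p = 0.0447). Delta arrays differed from wild-type arrays by 0.48 in Flt3 (SE 0.19, 95% CI 0.06 to 0.89, limma adjusted p = 0.546). They differed from floxed arrays by -0.54 (SE 0.19, 95% CI -0.95 to -0.12, limma adjusted p = 0.724). With the sex pattern as a covariate the difference in floxed against wild-type arrays was 1.11 (SE 0.36, adjusted p = 0.575). That covariate was estimated from delta 1 against the other delta arrays alone. Among arrays of female pattern, delta 2, 3 and 4 at 7.25, 7.42 and 7.11 all lay above the wild-type arrays, and delta 1, of male pattern, lay below the 3 floxed arrays at 7.16.

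Dendritic cells also use Flt3, and their markers were set beside it. Without Flt3 the mean of 11 dendritic cell markers was 7.40, 7.34 and 7.37 in floxed arrays, 7.26, 7.12, 7.25 and 7.39 in delta arrays, and 7.12, 7.24 and 7.13 in wild-type arrays. All floxed arrays lay above all wild-type arrays in this mean, an order that rested on Itgax, described below. Of these 11 markers 0 passed the threshold and 8 differed, between floxed and wild-type arrays, by less than 0.3, among them the conventional dendritic cell genes Zbtb46 (0.06), Xcr1 (-0.09) and Clec9a (-0.04) and the plasmacytoid gene Siglech (-0.10). The other 3 had higher means in floxed arrays, among them the integrin gene Itgae (0.35, SE 0.09, limma adjusted p = 0.124, groups not overlapping) and the chemokine receptor gene Ccr9 (0.68, SE 0.24, limma adjusted p = 0.252, groups overlapping). The largest difference was in the integrin gene Itgax (1.92, SE 0.50, adjusted p = 0.121), at 8.35, 9.22 and 8.19 in floxed, 7.36, 7.06, 7.29 and 9.39 in delta and 6.84, 6.74 and 6.44 in wild-type arrays. Delta 4 had the highest Itgax of all arrays and the lowest Flt3 of the delta arrays. The part of dendritic or other cells in the Flt3 values was not tested. A larger number of Flt3-positive cells and more Flt3 RNA per cell cannot be told apart in these bulk samples.

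Kit, the receptor of stem cell factor that is also used by pro-B cells, had levels of 6.53, 6.55 and 6.54 in floxed arrays, 6.45, 6.46, 6.39 and 6.46 in delta arrays, and 6.40, 6.43 and 6.47 in wild-type arrays. The 3 floxed arrays lay above the other 7, although by a small margin, and their SD was 0.0095. The difference was 0.11 in floxed against wild-type arrays (SE 0.05, 95% CI -0.01 to 0.23, limma adjusted p = 0.455). Delta arrays differed from wild-type arrays by 0.00 in Kit (95% CI -0.11 to 0.11). In delta against floxed arrays it was -0.10 (95% CI -0.22 to 0.01).

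Cd34, a sialomucin on progenitors and endothelial cells, had levels of 6.10, 6.14 and 6.03 in floxed arrays, 6.20, 5.98, 6.04 and 6.08 in delta arrays, and 6.12, 6.18 and 6.27 in wild-type arrays. The groups overlapped, with differences of -0.10 in floxed and -0.11 in delta against wild-type arrays (limma adjusted p = 0.620 and 0.761).

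Slamf1, the receptor CD150 that marks stem cells and also sits on lymphocytes, had levels of 9.85, 9.98 and 10.15 in floxed arrays, 10.05, 9.84, 9.55 and 10.03 in delta arrays, and 10.50, 9.92 and 10.04 in wild-type arrays. Wild-type 1 was the highest and delta 3 the lowest, and the groups overlapped. The difference was -0.16 in floxed against wild-type arrays (SE 0.16, 95% CI -0.51 to 0.19, limma adjusted p = 0.732), and it was 0.01 without wild-type replicate 1. In delta against wild-type arrays Slamf1 differed by -0.29 (SE 0.15, 95% CI -0.62 to 0.04, adjusted p = 0.702).

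Among the transcription factors, Hoxa5, a homeobox factor of the Hox A cluster, had levels of 5.24, 5.59 and 5.67 in floxed arrays, 5.22, 5.08, 5.30 and 5.58 in delta arrays, and 5.12, 4.999 and 4.98 in wild-type arrays. All floxed arrays lay above all wild-type arrays, while delta arrays spanned both groups, with delta 2 below wild-type 1 and delta 4 near the upper floxed arrays. The difference in floxed against wild-type arrays was 0.47 (SE 0.13, 95% CI 0.18 to 0.76, limma adjusted p = 0.145), while delta arrays differed from wild-type arrays by 0.26 (SE 0.12, 95% CI -0.0047 to 0.53, limma adjusted p = 0.644). Over the alternatives in which Hoxa5 was tested its adjusted p in floxed against wild-type arrays lay between 0.0760 and 0.652. With the sex pattern as a covariate the difference was 0.57 (SE 0.23).

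Hoxa9, a Hox factor tied to stem cell expansion, had levels of 6.64, 6.54 and 6.39 in floxed arrays, 6.49, 6.54, 6.55 and 6.61 in delta arrays, and 6.52, 6.60 and 6.53 in wild-type arrays. Its differences were -0.03 in floxed and 0.00 in delta against wild-type arrays, with intervals of -0.19 to 0.12 and -0.15 to 0.14. The groups overlapped for Hoxa9. Meis1, the partner of Hoxa9 on DNA, had levels of 6.46, 6.17 and 6.35 in floxed arrays, 6.19, 6.12, 5.81 and 6.22 in delta arrays, and 6.22, 6.34 and 6.22 in wild-type arrays. Delta 3 was the lowest array for Meis1 at 5.81, and Meis1 differed by 0.07 in floxed and -0.17 in delta against wild-type arrays. The difference of Meis1 was -0.24 in delta against floxed arrays (SE 0.10, 95% CI -0.46 to -0.01, limma adjusted p = 0.766), and the groups overlapped.

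Tal1, a helix-loop-helix factor of stem, erythroid and megakaryocyte cells, had levels of 7.13, 7.02 and 6.93 in floxed arrays, 7.18, 7.08, 7.10 and 7.06 in delta arrays, and 7.08, 7.13 and 6.99 in wild-type arrays. The groups overlapped, with differences of -0.04 and 0.04 in floxed and delta against wild-type arrays. Gata2, the GATA factor of stem cells and mast cells, had levels of 7.17, 7.05 and 7.00 in floxed arrays, 7.08, 7.08, 7.03 and 7.08 in delta arrays, and 7.18, 7.19 and 7.09 in wild-type arrays. The 4 delta arrays lay just below the 3 wild-type arrays, at a difference of -0.09 (SE 0.06, 95% CI -0.22 to 0.04, limma adjusted p = 0.797).

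Mecom, a zinc finger factor of long-term stem cells, was measured by 2 probe sets. The brighter one (10497608) had levels of 5.70, 5.63 and 5.68 in floxed arrays, 5.87, 5.78, 5.74 and 5.86 in delta arrays, and 5.74, 5.89 and 5.80 in wild-type arrays. All floxed arrays lay below the other 7 there, with differences of -0.14 in floxed against wild-type arrays (95% CI -0.28 to 0.0017, limma adjusted p = 0.395) and 0.14 in delta against floxed arrays (95% CI 0.01 to 0.27, adjusted p = 0.766). The dimmer one (10497590) had overlapping groups, at 5.25 to 5.45 in floxed, 5.28 to 5.55 in delta and 5.33 to 5.52 in wild-type arrays, and differed by -0.07 in floxed against wild-type arrays (adjusted p = 0.802). The order seen at the brighter probe set was therefore not seen at the dimmer one.

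**Figure D2:**
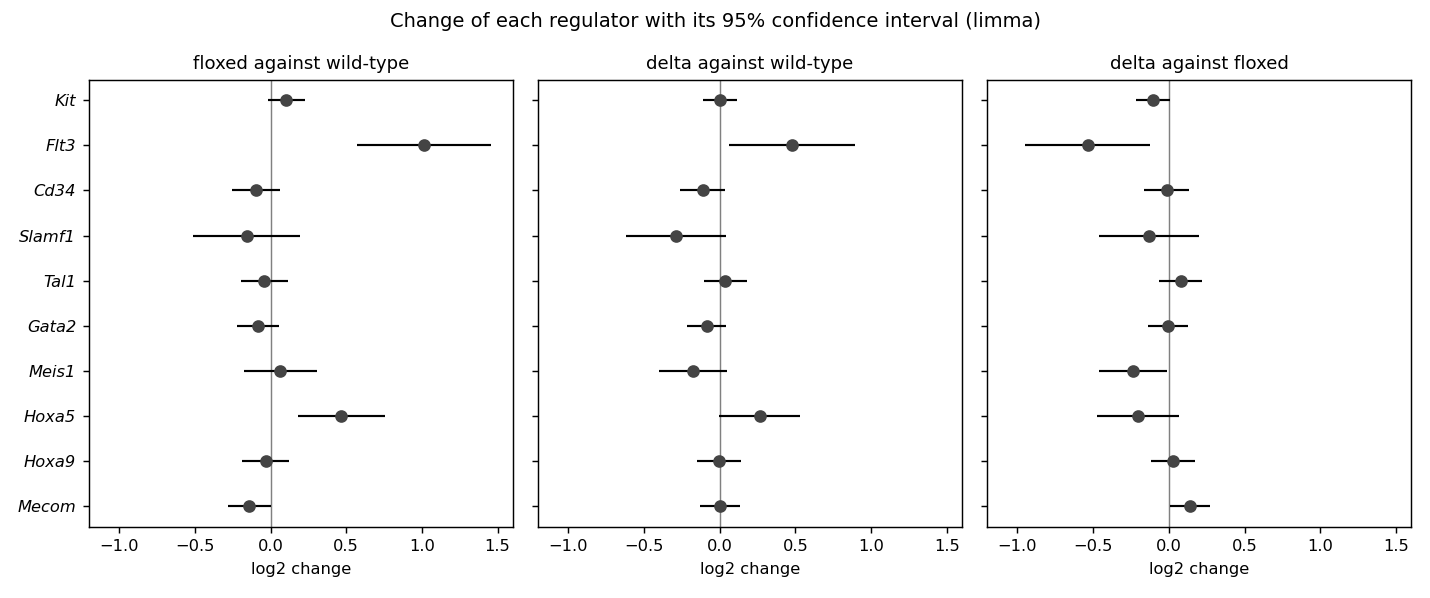
Log2 change of each regulator with its 95% confidence interval from limma, for floxed over wild-type, delta over wild-type and delta over floxed arrays. The interval of Flt3 in the left panel runs from 0.57 to 1.46 and lies furthest from 0, and those of the 7 members beside Flt3, Hoxa5 and Slamf1 stay within -0.28 and 0.31 there.

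In floxed against wild-type arrays 0 of 10 members passed the threshold, where 110 genes (0.552%) did, and 2 of 10 had an unadjusted p under 0.05, against 12.8% of all genes. In delta against wild-type arrays 0 of 10 passed, where 15 genes (0.0752%) did, and 1 member (Flt3) had an unadjusted p under 0.05, against 7.89% of all genes. In delta against floxed arrays 0 of 10 passed, where 1 gene (0.00502%) did, and 3 members (Flt3, Meis1 and Mecom) had an unadjusted p under 0.05, against 6.42% of all genes.

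The groups did not overlap for 4 of 10 members in floxed against wild-type arrays (Kit, Flt3 and Hoxa5 higher, Mecom lower), against 16.7% of all genes (7.6% higher and 9.13% lower). They did not overlap for 2 of 10 members in delta against wild-type arrays (Flt3 higher, Gata2 lower), against 9.25% of all genes (3.75% higher and 5.5% lower), and for 2 of 10 in delta against floxed arrays (Mecom higher, Kit lower), against 6.96% (3.36% higher and 3.61% lower). The median difference of the members was -0.04 in floxed against wild-type arrays, beside -0.02 over all genes, and 0.00 in delta against wild-type arrays, beside -0.01. In delta against floxed arrays it was -0.06, beside 0.0045 over all genes. For the 7 members beside Flt3, Hoxa5 and Slamf1 the intervals stayed between -0.28 and 0.31 in floxed against wild-type arrays, between -0.40 and 0.18 in delta against wild-type arrays, and between -0.46 and 0.27 in delta against floxed arrays. Each of these 95% intervals is for the probe signal of a single gene, and at low intensity a difference can be smaller than the true change of the transcript.

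The files hold no detection call, so the members were set beside 22 measured marker genes of liver, muscle, nerve, skin and other tissues. Their mean levels lay between 4.67 and 7.97 with a median of 6.26. The highest was Mbp, and the next was Apoa1 at 7.19. Whether B cells express any of these genes, Mbp among them, was not tested. A level also depends on the probes of a probe set, so this range is a rough floor and ranks no gene. Slamf1 lay above all 22 on 10 of 10 arrays. Flt3 lay above all 22 on 1 array, floxed 2, and above all but the highest on 5 arrays. The other 8 members lay above all 22 on no array, and of these only Gata2 and Tal1 lay above all but the highest, on 1 array each. These 8 transcripts were thus not separated from the tissue genes by this measure in floxed, delta or wild-type arrays.

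The ligands and DNA-binding or signalling partners of the members gave 25 measured genes of 28 listed. In floxed against wild-type arrays 1 of them rose, 0 fell and 24 did not pass, and the median difference was -0.04, beside -0.02 over all genes. The gene that rose was Pbx3, a homeobox partner of Hox and Meis proteins, at 9.30, 9.53 and 9.43 in floxed, 9.38, 8.99, 9.19 and 9.36 in delta and 8.58, 8.19 and 8.73 in wild-type arrays. All floxed and delta arrays lay above all wild-type arrays. The change of Pbx3 was 0.92 in floxed against wild-type arrays (SE 0.14, limma adjusted p = 0.0171), while delta arrays differed from wild-type arrays by 0.73 (SE 0.13, limma adjusted p = 0.0968). The call of Pbx3 ended with the sex pattern as a covariate (0.72, SE 0.24, limma adjusted p = 0.578) and on leaving out floxed 2, floxed 3, wild-type 1 or wild-type 2 (limma adjusted p = 0.0748, 0.0721, 0.0567 and 0.0592, at differences of 0.76 to 0.96). Meis3, a relative of Meis1, differed by 0.48 in floxed against wild-type arrays (SE 0.11, adjusted p = 0.0815). Sh2d1b1, the gene of the SLAM adaptor EAT-2, differed by 1.22 (SE 0.43, adjusted p = 0.250). In the other 2 comparisons 0 of the 25 passed.

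Another 39 measured genes of stem and progenitor cells, of 42 listed, gave 0 that rose, 1 that fell and 38 that did not pass in floxed against wild-type arrays, with a median difference of -0.02. Ly6a, the gene of Sca1 itself, was not analysed here because no probe set of a single symbol carried it. The gene that fell was Cd93, a surface marker of early progenitors and of immature B cells, at 6.68, 6.57 and 6.92 in floxed, 7.09, 7.37, 7.06 and 6.50 in delta and 8.27, 8.88 and 7.77 in wild-type arrays. Its change was -1.58 (SE 0.26, limma adjusted p = 0.0282) in floxed against wild-type arrays, and the difference in delta against wild-type arrays was -1.30 (adjusted p = 0.122). The call of Cd93 in floxed against wild-type arrays ended with the sex pattern as a covariate (-1.69, SE 0.46, adjusted p = 0.484) and with a robust prior with trend (adjusted p = 0.0692). It also ended on leaving out floxed 1, floxed 2, floxed 3, wild-type 1 or wild-type 2 (limma adjusted p = 0.0717, 0.104, 0.0721, 0.0801 and 0.0783, at changes of -1.68 to -1.29), and without wild-type 3 the gene passed in delta against wild-type arrays (-1.57, adjusted p = 0.0465).

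Myb, a transcription factor of progenitors and early B cells, had levels of 7.41, 7.37 and 7.50 in floxed, 7.59, 7.48, 7.35 and 7.33 in delta and 8.26, 8.77 and 7.86 in wild-type arrays. In both Cd93 and Myb all floxed and delta arrays lay below all wild-type arrays, and wild-type 2 was the highest. Its differences were -0.87 in floxed and -0.86 in delta against wild-type arrays (limma adjusted p = 0.05685 and 0.133), opposite in sign to those of Flt3. In the other 2 comparisons 0 of the 39 passed.

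The Hox A cluster, with 10 of 11 genes measured and Hoxa5 and Hoxa9 among them, had 0 genes past the threshold in all 3 comparisons and a median difference of 0.04 in floxed against wild-type arrays. After Hoxa5 its smallest p was in the adjacent Hoxa6, at 6.269, 6.66 and 6.44 in floxed, 6.36, 6.20, 6.34 and 6.39 in delta and 6.01, 6.265 and 6.26 in wild-type arrays (0.28, SE 0.10, adjusted p = 0.288). All floxed arrays lay above all wild-type arrays for Hoxa6, by a narrow margin. The SLAM family, with 9 of 9 genes measured and Slamf1 among them, also had 0 past the threshold in all 3 comparisons, with medians of -0.12 in floxed and -0.09 in delta against wild-type arrays. Its smallest p in floxed against wild-type arrays was in Cd84 (-0.21, adjusted p = 0.305), and Cd48, which is used with Slamf1 to sort stem cells, differed by -0.14 (adjusted p = 0.475).

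**Figure D3:**
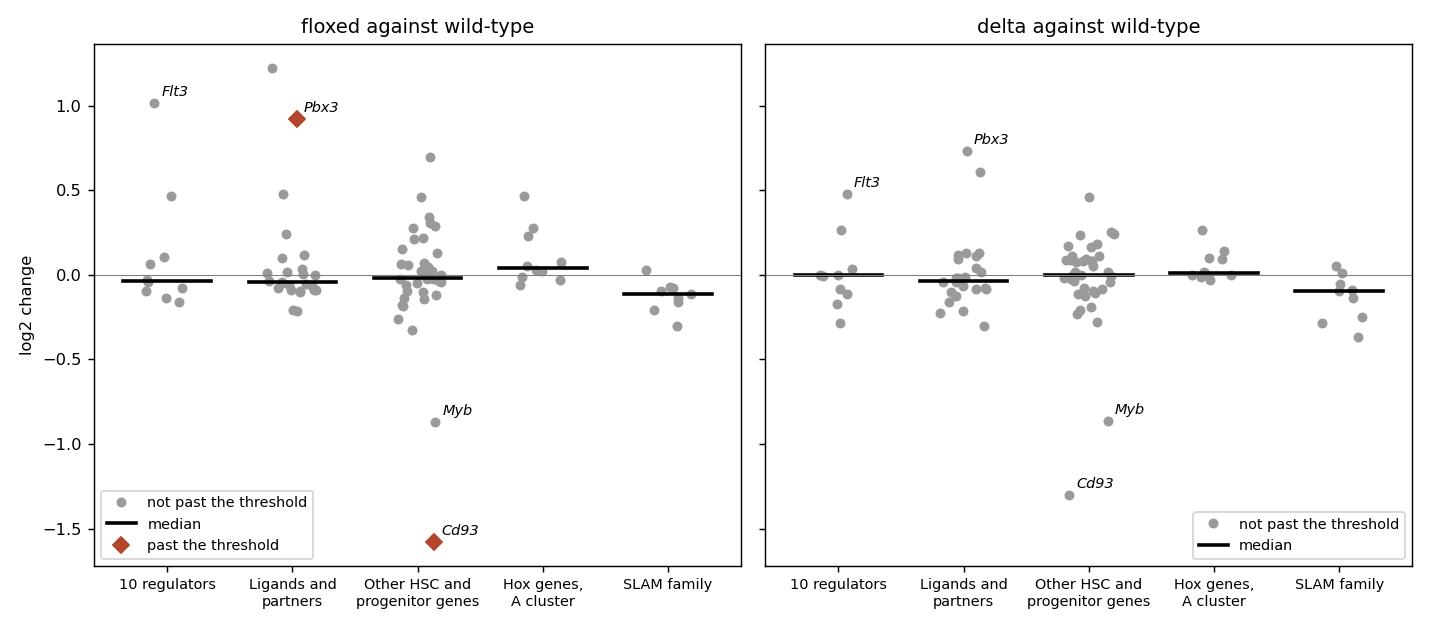
Log2 change of each measured gene of 5 gene groups in floxed against wild-type arrays (left) and delta against wild-type arrays (right); grey points did not pass an adjusted p of 0.05, diamonds passed, and bars are medians. Pbx3 at 0.92 and Cd93 at -1.58 are the genes past the threshold, both in the left panel, and every median lies within 0.12 of 0.

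The genes with the profiles nearest to those of the 2 most variable members, Flt3 and Hoxa5, were named by the root mean square difference of log2 profiles over the 10 arrays, each centred on its own mean. Nearest to Flt3 were Tmem63a, Mreg, Pmepa1 and Gca, at differences of 0.22, 0.22, 0.23 and 0.23, beside an SD of 0.49 for Flt3 itself. Those genes' own SDs over the arrays were 0.32 to 0.44. Like Flt3, all 4 had their highest level in floxed 2, at 10.50, 8.11, 9.43 and 8.61. That shared peak follows in part from choosing the genes by their likeness to the Flt3 profile.

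Nearest to Hoxa5 were Mllt3, Arhgap24, Pitpnc1 and Entpd1, at differences of 0.06, 0.09, 0.09 and 0.09, beside an SD of 0.25 for Hoxa5. Mllt3, which encodes the elongation factor subunit AF9 and is also on the list of stem and progenitor genes, had levels of 8.91, 9.11 and 9.18 in floxed, 8.73, 8.61, 8.95 and 9.11 in delta and 8.71, 8.515 and 8.60 in wild-type arrays. In both Mllt3 and Hoxa5 delta 4 was the highest delta array and floxed 3 the highest floxed array. Mllt3 differed by 0.46 in floxed against wild-type arrays (SE 0.12, limma adjusted p = 0.126), beside 0.47 for Hoxa5. Such likeness follows in part from choosing Mllt3 by its profile.

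**Figure D4:**
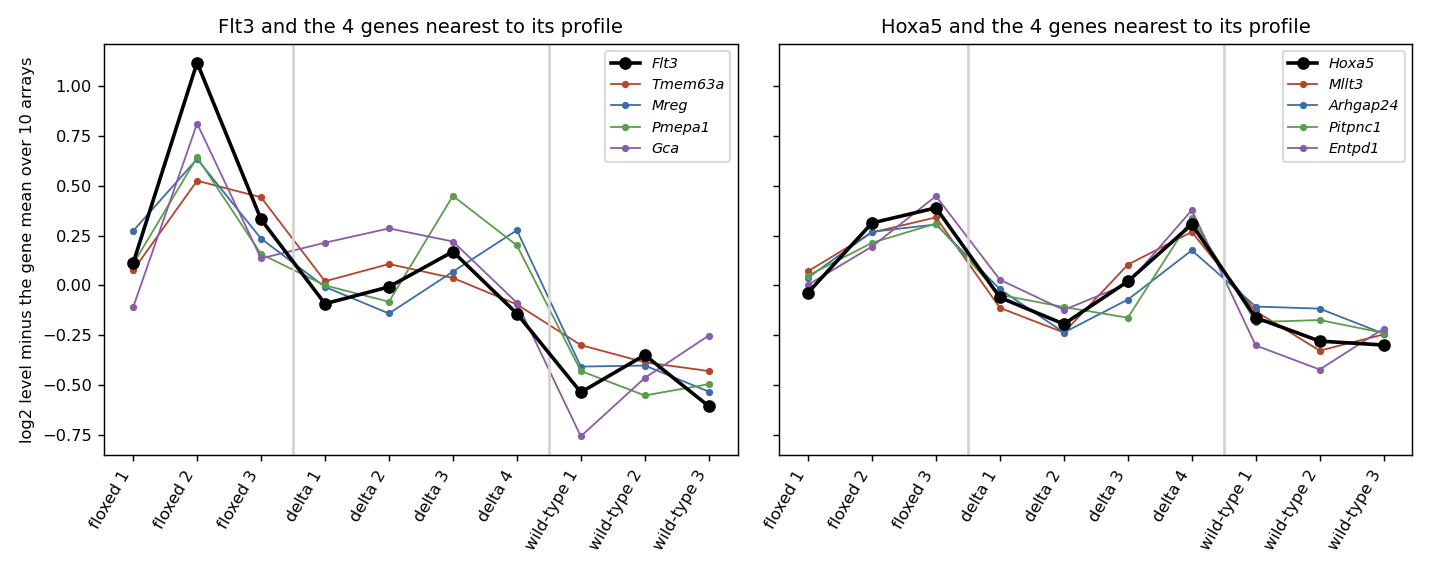
Log2 level minus the mean over 10 arrays, per array, for Flt3 (left) and Hoxa5 (right) in black and the 4 genes nearest to each profile in colour, with floxed, delta and wild-type arrays from left to right. The Flt3 line peaks in floxed 2 with its neighbours, and the Hoxa5 lines rise together in floxed 2, floxed 3 and delta 4, with Mllt3 at a root mean square difference of 0.06.

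Cells other than B cells express several members, and the array means of their marker lists were set beside them. Myeloid markers (14 measured) lay at 6.57 to 7.01 in floxed, 6.46 to 6.93 in delta and 6.38 to 6.41 in wild-type arrays, with the macrophage gene Adgre1 at 9.11 to 9.83, 8.06 to 10.15 and 7.09 to 7.81. The myeloid genes did not move together between floxed and wild-type arrays. Adgre1 and Itgam differed by 1.91 and 1.115, and Ngp, Lyz2, Ly6g, Ltf and S100a8 by 0.81, 0.56, 0.33, 0.30 and 0.27. Camp, Csf3r and S100a9 differed by 0.06, 0.04 and 0.04. Cd14, Mertk, Csf1r and Elane differed by -0.26, -0.23, -0.21 and -0.04, and the median of the myeloid list was 0.17. Erythroid markers (11 measured) lay at 7.51 to 7.89 in floxed, 7.01 to 7.48 in delta and 7.16 to 7.40 in wild-type arrays, T cell markers (14) at 6.46 to 7.12, 6.32 to 6.65 and 6.28 to 6.58, and NK cell markers (12) at 6.06 to 6.46, 5.82 to 6.18 and 5.81 to 5.98. Floxed arrays lay above wild-type arrays on the myeloid, erythroid and NK cell lists, and overlapped with them on the T cell list. The order on the NK cell list rested on Il2rb, at 8.01, 8.11 and 7.53 in floxed and 6.39, 6.58 and 6.49 in wild-type arrays. The order on the myeloid list rested on Adgre1 together with Itgam. On the dendritic cell list without Flt3 floxed arrays also lay above, an order that rested on Itgax. In floxed against wild-type arrays the medians were 0.19, 0.28 and 0.19 on the erythroid, T cell and NK cell lists, beside -0.02 over all genes. There the groups did not overlap for 6 of 11, 3 of 14 and 2 of 12 genes, against 16.7% of all genes. The 2 of smallest p were Car1 and Trim10 (0.56 and 0.82), Cd3d and Cd28 (0.42 and 0.44), and Prf1 and Il2rb (0.81 and 1.40). Their limma adjusted p lay between 0.0568 and 0.178. Of each list 0 genes passed the threshold in any comparison, and the part of these cells in the member values was not tested.

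Cells that use Kit, Gata2, Tal1 or Cd34 include mast cells, megakaryocytes and endothelium, and on their lists floxed and wild-type arrays overlapped. Mast cell and basophil markers (9 measured) lay at 5.48 to 5.54 in floxed, 5.44 to 5.53 in delta and 5.50 to 5.60 in wild-type arrays, with their protease gene Cpa3 at 4.60 to 4.89 in floxed arrays. Megakaryocyte and platelet markers (6 of 9 measured) lay at 7.17 to 7.31, 7.20 to 7.34 and 7.18 to 7.30, and endothelial markers (10 measured) at 6.89 to 6.98, 6.92 to 6.97 and 6.97 to 7.01. No gene of these 3 lists passed the threshold in any comparison.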

How the data were processed

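Expression was measured on 10 arrays of sorted splenic B cells. The authors deposited a linear intensity per probe set (4.46 to 26808) made with RMA, per the submitters' processing notes. The RMA software is not given in the sources used here. Log2 of each value was taken. Probe sets were named from the platform annotation: 21640 of 34760 carried 1 symbol, 1321 several and 11799 none. The probe set with the highest mean stood for each of the 954 genes with several, which left 19937 genes. Limma 3.58.1 in R 4.3.3 fitted a mean per group over all 10 arrays (lmFit, eBayes, prior of 4.32 degrees of freedom), two-sided, with Benjamini-Hochberg adjustment and a threshold of 0.05. The fit was tested on simulated data. The members, the gene lists and the alternatives were chosen with earlier results of these data known. All members were named, and for the 2 most variable members the 4 nearest profiles. Of each list, the rule picked up to 4 genes past the threshold in a comparison, or else the 2 of smallest p. Not all genes picked by this rule are given in the text. Adgre1, Mertk, Csf1r, the other myeloid genes, Itgae, Zbtb46, Xcr1, Clec9a, Siglech, Cpa3 and Sh2d1b1 were named after their values were seen. Alternatives were other normalizations, filters and priors, a replicate block, the sex pattern as a covariate and leaving out each array; those for Pbx3, Cd93 and Cd79a were added after seeing the data. Y-linked genes and Xist gave the sex pattern of an array.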

Additional observations from a re-analysis of the deposited data

Results flagged for a closer look

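In the delta group (groups of 3 arrays were not tested), 30 named genes were tested by the gap of the highest or lowest array to its neighbour divided by the range of the 4 arrays (Dixon's ratio), and 4 exceeded the critical value for 4 samples at 95%. Chance flags about 1 in 20 groups. Among the members, Gata2 had a ratio of 0.832, with delta 3 at 7.03 and the other 3 arrays at 7.08. Cd84 of the SLAM family had a ratio of 0.914, with delta 2 at 10.75 and the others at 10.61 to 10.62. Itgax had a ratio of 0.872, with delta 4 at 9.39 and the others at 7.06 to 7.36. Xist had a ratio of 0.971, with delta 1 at 6.20 and the others at 12.84 to 13.04.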

How the results depend on the processing

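There were 19 alternatives, 10 of which left out 1 array, and the 40th-percentile filter tested only 4 members (Flt3, Gata2, Slamf1 and Tal1). Of 552 member values 519 kept their direction and 33 turned, in 11 of 30 results, the largest of them a difference of -0.16 (Slamf1 in floxed against wild-type arrays). Calls among members changed only for Flt3 in floxed against wild-type arrays, which gave 1 member past the threshold with each array centred on its median, with genes above the 40th percentile of mean level, with array weights and with the replicate block, and 0 to 1 on leaving out 1 array. Genes past the threshold numbered 166 with that filter (11962 genes tested), 208 with array weights, 193 with only the 2 groups compared, 188 with the replicate block and 2 with the sex pattern as a covariate, against 110. In delta against wild-type arrays they numbered 0 with every probe set with a symbol, 9 with a trended robust prior, 0 with only the 2 groups, 6 with the replicate block and 3 with the sex pattern, against 15, and in delta against floxed arrays 3 with a trended robust prior, 2 with only the 2 groups and 2 with the replicate block, against 1. Leaving out 1 array gave 18 to 240, 0 to 23 and 1 to 10 genes in the 3 comparisons. The sex term was estimated from delta 1 against the other delta arrays alone. The cause of these shifts was not tested. Same-numbered arrays had correlations of deviations from -0.083 to 0.121, and the labels state no pairing between them. Whether same-numbered arrays share anything beyond the number was not tested.

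Directions turned as follows. In floxed against wild-type arrays, Hoxa9 was 0.0092 after quantile normalization, and with the sex pattern Hoxa9 was 0.042 and Meis1 -0.078. In delta against wild-type arrays, Hoxa9 was 0.0097 after quantile normalization, 0.0020 after centring, 0.00054 with array weights and 0.014 with the sex pattern. Kit there was -0.0044 with the replicate block and -0.0013 with the sex pattern, and Mecom -0.015 and -0.019. In delta against floxed arrays with the sex pattern, Cd34 was 0.11, Hoxa9 -0.028, Gata2 0.0021 and Slamf1 0.057. On leaving out 1 array, Hoxa9 spanned -0.091 to 0.034, -0.024 to 0.021 and -0.039 to 0.086 in the 3 comparisons, Tal1 -0.092 to 0.0072 and Slamf1 -0.28 to 0.015 in floxed against wild-type arrays, Kit -0.014 to 0.019 and Mecom -0.032 to 0.039 in delta against wild-type arrays, and Gata2 -0.040 to 0.043 and Cd34 -0.057 to 0.018 in delta against floxed arrays. The number of arrays limits the precision, and at low intensity a difference can be smaller than the true change.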
